A study of Mus musculus with 4 samples.

Results

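The genes described here encode 10 subunits of the SWI/SNF chromatin remodelers: Smarca2, Smarca4, Smarcb1, Smarcc1, Smarcc2, Smarcd1, Arid1a, Arid1b, Arid2 and Pbrm1. Each read cluster whose centre lay inside the span of 1 of these genes, on its own strand, was assigned to it (GENCODE release M21, mouse build mm10). All 10 genes held clusters in both replicates, with 859 of 337234 clusters in replicate 1 (0.255%) and 521 of 216354 in replicate 2 (0.241%). IGF2BP3-bound RNA was measured by enhanced crosslinking and immunoprecipitation (eCLIP) in testes of 8-week-old wild-type C57BL/6 mice. In each of 2 replicates, an immunoprecipitate (IP) made with an IGF2BP3 antibody was compared with a size-matched input (SMInput), which is RNA of the same size range sequenced without the antibody. The study calls them biological replicates, but the labels do not say whether they came from separate animals, so part of their spread may be technical.

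SWI/SNF complexes use the energy of ATP to slide or evict nucleosomes. Each complex is built around an ATPase, either SMARCA4 (BRG1) or SMARCA2 (BRM). In the forms named BAF and PBAF, the ATPase sits on a core with SMARCB1, SMARCC1, SMARCC2 and SMARCD proteins. ARID1A and ARID1B are alternative subunits of the BAF form, whereas ARID2 and PBRM1 belong to the PBAF form. In the male germ line, loss of SMARCA4 is known to halt meiosis. IGF2BP3 is an RNA-binding protein with K-homology domains that reads N6-methyladenosine and acts on the stability and translation of mRNAs.

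The authors listed each cluster with a log2(fold change) of IP over SMInput, scaled to the libraries, and a −log10(P value). Clusters that reached at least 2 on both scales were called significant peaks. Below the highest listed −log10(P value) of 400 and above 0, a single pair of whole read numbers gave back the listed values for 99.99% of clusters, both in replicate 1 and in replicate 2. The libraries then held 5133438 IP and 8706391 SMInput reads in replicate 1, and 4637612 IP and 16696122 SMInput reads in replicate 2. Intervals on log2(fold change) below are exact binomial 95% intervals from these reads, and intervals on shares are 95% Wilson intervals. Both cover counting error only.

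Among the clusters of the 10 genes, 50 were significant peaks in replicate 1 (5.82%, 4.44 to 7.59) against 4.92% of all clusters. In replicate 2 there were 55 (10.6%, 8.2 to 13.5) against 13.2%. The genes as a group therefore sat close to the background, slightly above it in replicate 1 and slightly below it in replicate 2. Their median log2(fold change) was 1.35 and 1.26, while that of all clusters was 1.5 and 1.53. Differences lay between the members and between the regions of their transcripts. Since whole testes were used, fewer cells of a type and less RNA per cell cannot be told apart.

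Regions were read at the centre of each cluster. In 3′UTRs, 16 of 62 clusters of the members were significant in replicate 1 (25.8%, background 19.4%) and 20 of 52 in replicate 2 (38.5%, background 34.5%). In coding sequence (CDS), the counts were 24 of 310 (7.74%, background 5.28%) and 15 of 251 (5.98%, background 7.96%). In introns, they were 10 of 474 (2.11%, background 1.94%) and 20 of 210 (9.52%, background 10.8%). Each share was thus near the share of all clusters in the same region. The intron peaks were also shallow, with 7 to 11 IP reads in replicate 1 and 4 to 7 in replicate 2, over at most 3 and 5 SMInput reads. None of the 11 and 8 clusters in 5′UTRs was significant, where the background was 5.09% and 8.63%, so that fewer than 1 peak would be expected in each replicate.

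**Figure D1:**
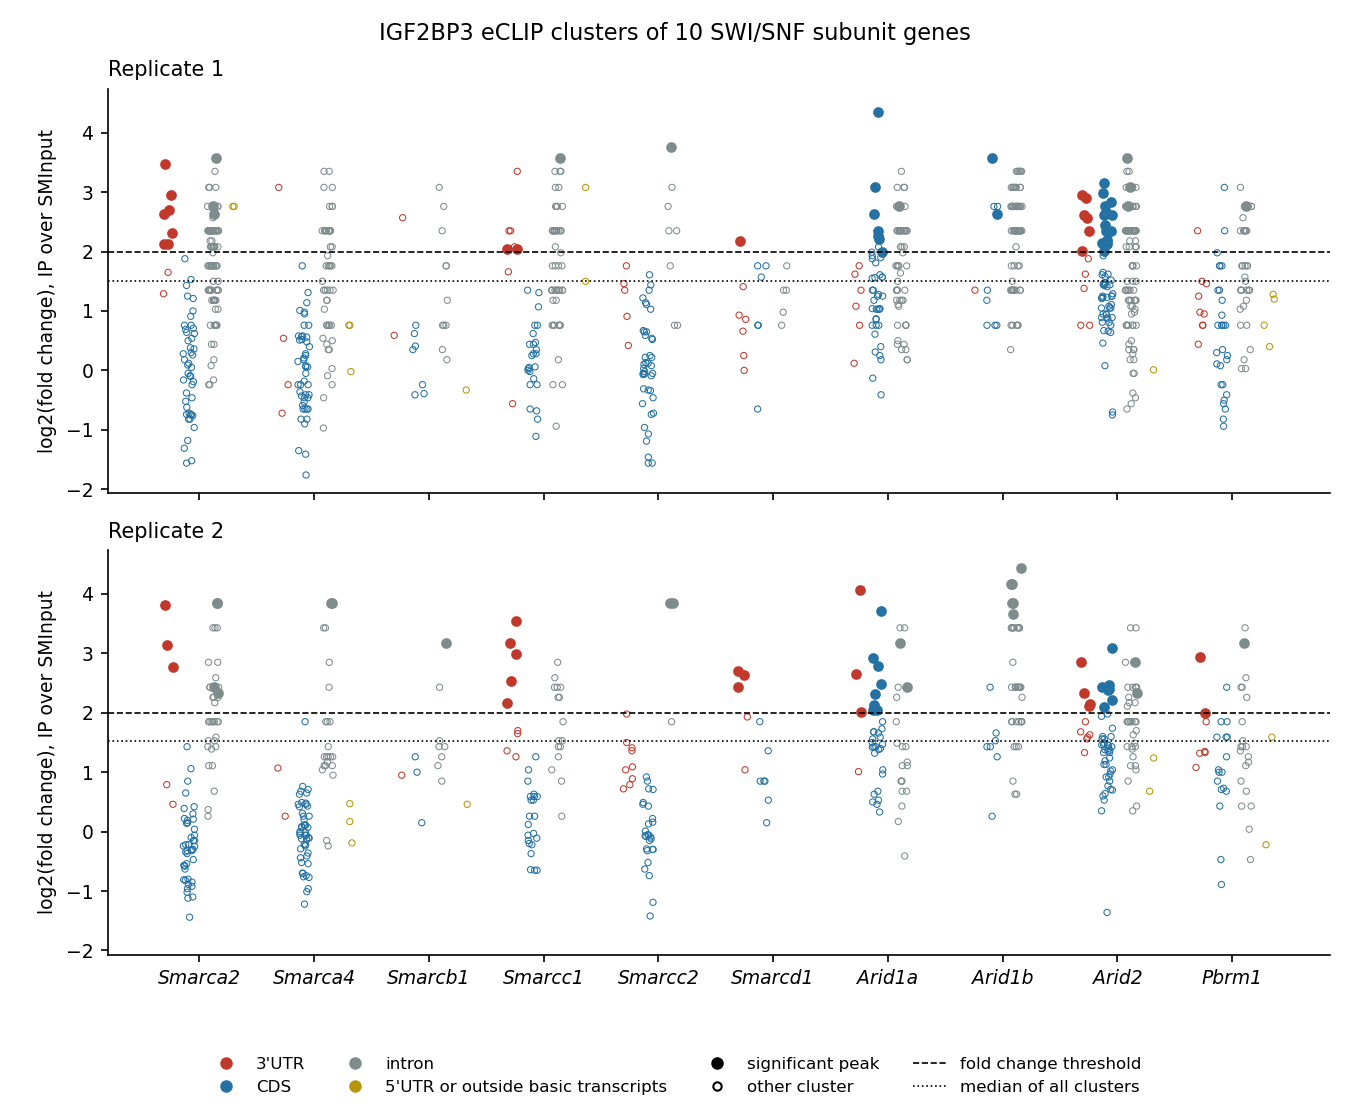
Each point is 1 cluster of the gene named on the x axis, placed by its log2(fold change) of IP over SMInput on the y axis, in replicate 1 (upper) and replicate 2 (lower); colours give the region and filled points are significant peaks. The dashed line is the fold change threshold of 2 and the dotted line the median of all clusters (1.5 and 1.53). Filled CDS points occur in Arid1a, Arid2 and, in replicate 1 alone, Arid1b, and the filled 3′UTR points of Smarca2 lie apart from its CDS points.

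Of the 10 genes, 8 had a significant peak in replicate 1 and 10 in replicate 2, so that 8 had 1 in both. Among all 14215 genes with a cluster in both replicates, 35.2% had a peak in both. The members also carried more clusters than most genes, with a median of 84 and 47.5 per gene against 13 and 8, and the part of that number in the count was not tested. When only peaks with at least 10 IP reads were counted, 5 of the 10 genes had a peak in both, against 19.9% of the 14215 genes. A Benjamini-Hochberg adjusted P value of at most 0.05 also left 5 of the 10, against 25.2%. A stricter criterion is the shared site, where significant peaks of both replicates on the same strand have 1 or more bases in common. By it, 4 of the 10 genes held 14 sites (Arid2 6, Smarca2 4, Arid1a 2 and Smarcc1 2), and 15.1% of the 14215 genes held any. Among these 14 sites were 7 of 3′UTRs, 6 of coding exons and 1 of an intron. Over all genes, 2587 of 4157 shared sites were in 3′UTRs (62.2%) and 1168 in CDS (28.1%). The smaller log2(fold change) of each site had a median of 2.16 in the members and 2.52 over all shared sites.

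The paired ATPase genes differed most in their 3′UTRs. Smarca2, which encodes BRM, had significant peaks at 7 of 9 3′UTR clusters in replicate 1 and 3 of 5 in replicate 2. Its 3′UTR spans 905 bases in the transcript model used, which gave 7.73 and 3.31 peaks per kb. Some peaks of replicate 1 were touching pieces of 1 stretch, and joining them would lower its density. Smarca4, which encodes the alternative ATPase BRG1, had no significant peak at 4 and 2 3′UTR clusters over 1262 bases (background 19.4% and 34.5%). With so few clusters, Smarca4 did not stand apart from that background. Its 3′UTR clusters with recovered reads held 5 to 25 IP reads, and the highest values were 3.08 in replicate 1 (5 IP over 1 SMInput read) and 1.07 in replicate 2 (25 over 43 reads). Both genes were covered alike in CDS, where neither had a peak. Smarca2 had 46 and 44 CDS clusters with a median log2(fold change) of 0.07 and -0.30, and Smarca4 had 47 and 49 with 0.06 and -0.03. Within exons, the peaks that set the ATPase genes apart thus lay beyond the stop codon, and the difference was not tested.

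The 3′UTR of Smarca2 held 3 shared sites, all in its last exon (exon 34 of 34). The first, chr19:26777706-26777772, lay 369 bases after the stop codon. It had a log2(fold change) of 3.47 in replicate 1 (2.62 to 4.44, 85 IP and 13 SMInput reads) and 3.14 in replicate 2 (2.52 to 3.79, 76 and 31 reads). These intervals overlapped. Shared sites were chosen for reaching 2 in both replicates, which favours such overlap. Here and at the sites below, it is therefore no separate sign of agreement. The deepest site, chr19:26777837-26777962, was split into 3 touching peaks in replicate 1, and the strongest of them reached 2.7 (2.24 to 3.19) with 184 IP and 48 SMInput reads and a −log10(P value) of 39.3. In replicate 2 a single peak covered it at 3.81, above that interval of replicate 1, with the −log10(P value) listed at 400. This is the highest value listed, and the reads of such clusters are not fixed by it. Its fold change corresponds to a ratio of 82 IP to 21 SMInput reads or a multiple of it. That ratio alone would give a −log10(P value) of 44.5, whereas values up to 88 were listed below 400 in replicate 2, so the cluster held at least 164 IP and 42 SMInput reads. The last site joined 3 peaks of replicate 1 to 1 of replicate 2. At chr19:26778118-26778160 the values were 2.13 (1.34 to 2.98) and 2.77 (2.19 to 3.37), and the other peaks of replicate 1 had 2.13 (1.30 to 3.03) and 2.95 (1.75 to 4.38, 32 and 7 reads). All of these intervals overlapped.

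**Figure D2:**
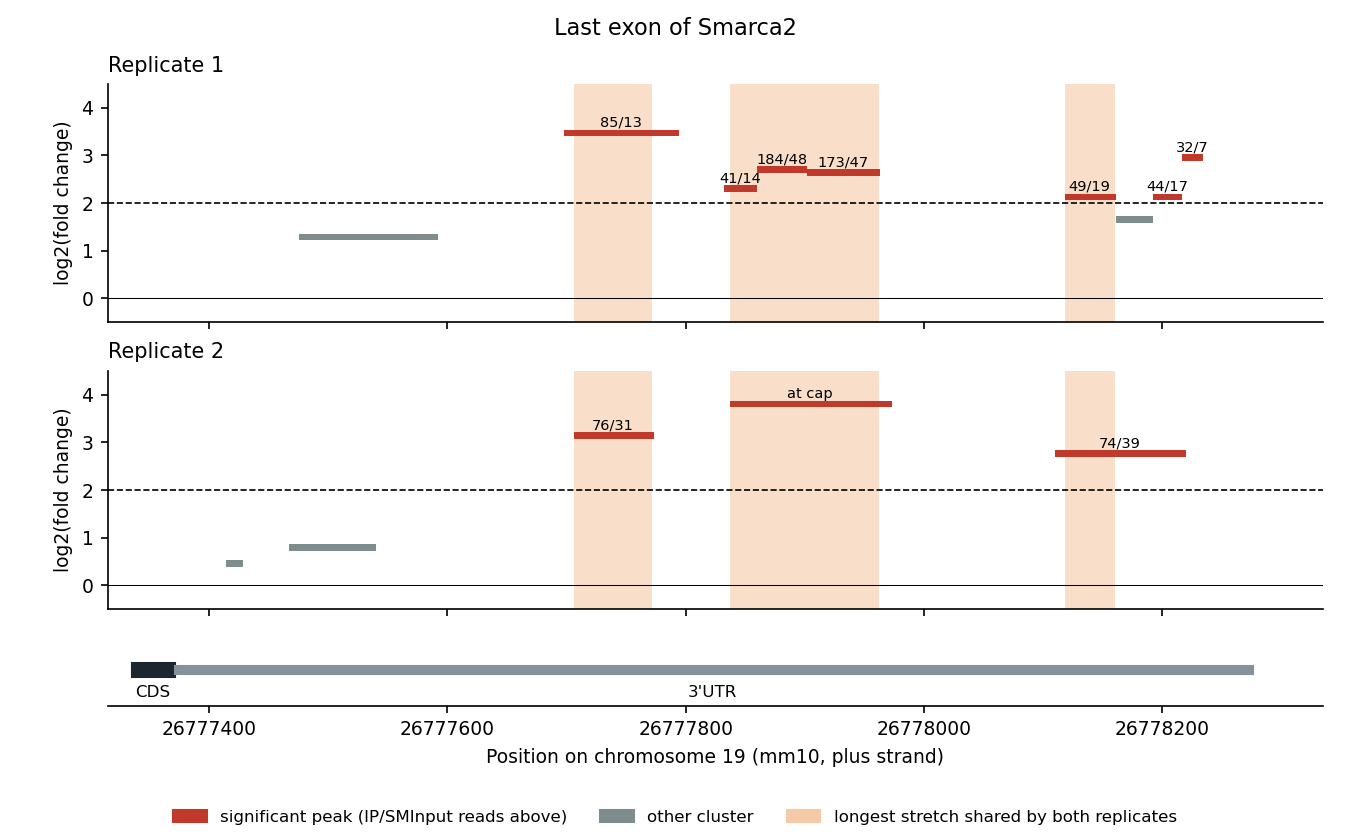
The last exon of Smarca2 with each cluster drawn from its start to its end on the x axis (mm10 position) at its log2(fold change) on the y axis, in replicate 1 (top) and replicate 2 (middle), above the CDS and 3′UTR of the transcript model. Red bars are significant peaks with their IP and SMInput reads, and shading marks the stretches shared by both replicates. All 7 and 3 significant peaks lie downstream of the clusters nearest the stop codon, which stay below the dashed threshold of 2.

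The windows at the centre of the Smarca2 3′UTR sites are shown because the middle one lies in the deepest site among the 10 genes. They are 30 bases of the plus strand of GRCm38 from RefSeq, at chr19:26777725-26777754, chr19:26777885-26777914 and chr19:26778125-26778154. Motifs searched were GAACA and AAACC, which the study names, with GGACT and also ACACA. Capitals mark matches to them in the sequences of Smarca2, Smarcc1 and Arid2, and none of the Smarca2 windows holds any. The base composition was looked at after the values were seen. In the window of 100 bases around the deepest site, T made up 46% and G and C together 30%, where the medians over all 2587 shared 3′UTR sites were 32% and 45%. As many T were found in 101 of those windows (3.9%).
Smarca2 first site: tttggtagcagtttgatgtgctgggttctg
Smarca2 deepest site: ttttctcttttctcttttttacactgtggt
Smarca2 last site: tggatggcttctcttgtccacccgatctcc

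The ATPase genes carried their other peaks in introns, and these rested on few reads. Smarca2 had 3 peaks among 93 intron clusters in replicate 1 and 4 among 38 in replicate 2, and Smarca4 had 0 among 51 and 2 among 23. The background in introns was 1.94% and 10.8%. A pair of the Smarca2 peaks formed its remaining shared site, chr19:26643126-26643127, where the peaks overlapped by 2 bases, with 7 IP and 1 SMInput reads (3.57, 0.61 to 9.06) and 4 and 1 reads (3.85, 0.51 to 9.47). With intervals this wide, the size of the enrichment was not resolved at this depth. The only significant peaks of Smarca4 were a pair of intron peaks in replicate 2, chr9:21643108-21643145 and chr9:21698000-21698047. Both had 4 IP reads over 1 SMInput read.

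Among the core subunits, peaks were found mainly in the 3′UTRs of Smarcc1 and Smarcd1. Smarcc1, which encodes a scaffold of the core (BAF155), had 2 of 8 significant 3′UTR clusters in replicate 1 (background 19.4%). In replicate 2 it had 5 of 9 (background 34.5%). Its shared sites lay far apart in the 2265-base 3′UTR. The site 145 bases after the stop codon, chr9:110238038-110238079, had values of 2.04 (0.70 to 3.55, 17 IP and 7 SMInput reads) and 2.53 (0.73 to 4.48, 8 and 5 reads). The site 1626 bases after it, chr9:110239511-110239567, had 2.04 (0.70 to 3.55, 17 and 7 reads) and 3.55 (1.85 to 5.62, 13 and 4 reads). Replicates overlapped in their intervals at both sites, which the choice of shared sites favours, and the lower limits lay under the threshold. The Smarcc1 peak with the highest −log10(P value) in replicate 2 (5.8) was at chr9:110238933-110239021, between these sites, with 3.17 (1.72 to 4.82, 15 and 6 reads), and replicate 1 had no cluster there.

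Windows of 30 bases from the Smarcc1 sites, on the plus strand of GRCm38 from RefSeq, are given as the only shared sites of a core subunit. They lie at chr9:110238044-110238073 and chr9:110239525-110239554, and neither holds any of the motifs.
Smarcc1 proximal site: cactccttgatacttcttgtgtcaggtcct
Smarcc1 distal site: ttcctctaaccaggagcccacgtcaccgcc

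Smarcc2, which encodes the paralogous scaffold BAF170, had no significant cluster among 5 and 9 in 3′UTRs, where the background was 19.4% and 34.5%. These clusters had a median of 26 and 19 IP reads, and their log2(fold change) reached 1.76 and 1.98, just under the threshold. Its peaks were intronic: chr10:128460253-128460329 in replicate 1 (8 IP over 1 SMInput read) and the touching pair chr10:128464100-128464113 and chr10:128464114-128464159 in replicate 2 (4 over 1 each). Smarcd1, which encodes a BAF60 subunit that links the complex to transcription factors, had 1 significant peak of 7 3′UTR clusters in replicate 1 and 3 of 5 in replicate 2. The peaks with the highest −log10(P value) were chr15:99712690-99712758 in replicate 1 (2.18, 0.75 to 3.82, 16 and 6 reads) and chr15:99712878-99713025 in replicate 2 (2.63, 1.75 to 3.56, 31 and 18 reads). They did not overlap. Smarcb1, the core subunit known as SNF5, was the member with the fewest recovered IP reads in replicate 1 (84). Its single peak, chr10:75909576-75909701 in an intron in replicate 2, had 5 IP and 2 SMInput reads.

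In coding sequence, significant peaks were found in the ARID genes and in none of the other members. Arid1a, Arid1b and Arid2, whose proteins carry AT-rich DNA interaction domains, together had 24 significant peaks among 110 CDS clusters in replicate 1 (21.8%, 15.1 to 30.4) and 15 among 82 in replicate 2 (18.3%, 11.4 to 28.0). The other 7 genes had 0 of 200 and 0 of 169, with upper limits of 1.88% and 2.22% from counting error alone. These intervals treat clusters of 1 gene as independent, which they are not, so they do not measure spread between genes. The median log2(fold change) of CDS clusters was 1.32 and 1.43 in the ARID genes and 0.13 and -0.01 in the others. Over all CDS clusters the median was 0.76 and 0.93, between these groups, and 5.28% and 7.96% were significant. By gene, the medians were 1.29 to 1.35 and 1.38 to 1.5 in the ARID genes. In the others they ran from 0.05 (Smarcc2) to 1.17 (Smarcd1) in replicate 1 and from -0.30 (Smarca2) to 1.0 (Smarcb1 and Pbrm1) in replicate 2, with the lowest in Smarca2, Smarca4, Smarcc1 and Smarcc2. Read numbers were recovered for 104 of 110 and 81 of 82 CDS clusters of the ARID genes and for 111 of 200 and 83 of 169 of the others, since clusters with a −log10(P value) of 0 have none. Among these, the median was 17 and 16 IP reads against 10 and 7, and the part of depth in the difference was not tested. The ARID genes were not alike in depth. Their CDS medians were 14 and 12 IP reads in Arid1a, 22.5 and 21 in Arid2, but 4 and 4 in Arid1b. In replicate 2 the CDS peaks were in Arid1a and Arid2, and none was in Arid1b. The split by gene was noticed in these values and was not tested.

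Arid2, the subunit that defines PBAF together with Pbrm1, had the most peaks of the 10 genes in replicate 1. There 24 of its 160 clusters were significant (15%, 10.3 to 21.3), against 4.92% of all clusters. These were 15 in CDS, 6 in the 3′UTR and 3 in introns. In replicate 2, Arid2 had 13 of 94 (13.8%, 8.26 to 22.2, background 13.2%), as many peaks as Arid1a. It had 7 of them in CDS, 4 in the 3′UTR and 2 in introns. It held 6 shared sites, and 102 of 14215 genes (0.718%), Arid2 included, held as many or more. Exon 15 of 21 (chr15:96369920-96372762) held 9 of the 15 CDS peaks and 4 of the 7, and with 2843 bases it makes up 51.8% of the coding sequence.

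Exon 15 of Arid2 contained 3 of the shared sites. At chr15:96370193-96370218 the log2(fold change) was 2.66 (1.41 to 4.10, 26 IP and 7 SMInput reads) and 3.09 (2.29 to 3.95, 45 and 19 reads). At chr15:96370291-96370379, which holds the peak of Arid2 with the highest −log10(P value) in replicate 1 (23.5), it was 3.15 (2.41 to 3.96, 94 and 18 reads) and 2.38 (1.76 to 3.02, 55 and 38 reads). The site chr15:96372152-96372184 had 2.18 (1.02 to 3.47) and 2.40 (1.39 to 3.45). At each of these sites the intervals of the replicates overlapped, which the choice of shared sites favours. In the 3′UTR, the peak with the highest −log10(P value) in replicate 2 (20.3), chr15:96403096-96403180, overlapped a peak of replicate 1, and the values were 2.01 (1.40 to 2.65, 76 and 32 reads) in replicate 1 and 2.11 (1.62 to 2.61, 78 and 65 reads) in replicate 2. The other 3′UTR site of Arid2, chr15:96403441-96403443, joined peaks that shared 3 bases, at 2.62 (1.63 to 3.74) and 2.15 (1.16 to 3.17). The remaining site was in exon 8, at chr15:96361876-96361919, with 2.35 and 2.1.

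The bases shared by both replicates at the Arid2 exon 15 sites are shown because they are 3 of its 4 shared CDS sites, on the plus strand of GRCm38 from RefSeq, at chr15:96370193-96370218, chr15:96370291-96370379 and chr15:96372152-96372184. A window of 30 bases follows from the 3′UTR site where the peaks shared 3 bases, which has the larger fold changes of the 3′UTR sites (chr15:96403428-96403457). Capitals mark matches to the same 4 motifs. The middle CDS site holds overlapping matches to ACACA and the last a match to GGACT, which is a form of the sequence in which N6-methyladenosine is commonly placed.
Arid2 exon 15 first site: ctgtgagtatctctgttggaggagca
Arid2 exon 15 middle site: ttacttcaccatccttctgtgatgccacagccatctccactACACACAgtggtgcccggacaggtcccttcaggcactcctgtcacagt
Arid2 exon 15 last site: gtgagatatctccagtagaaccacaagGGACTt
Arid2 3′UTR last site: tgcctattgcctgttctattagcatccaaa

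Arid1a, the large BAF subunit, had 8 significant peaks among 104 clusters in replicate 1 (7.69%, 3.95 to 14.4, background 4.92%). In replicate 2 it had 13 among 57 (22.8%, 13.8 to 35.2, background 13.2%). In CDS, 7 of 42 and 8 of 31 clusters were significant (16.7% and 25.8%, background 5.28% and 7.96%). Exon 3 of 20, an exon of 450 bases (chr4:133720550-133720999), held 2 of the 7 CDS peaks in replicate 1 and 5 of the 8 in replicate 2, among 3 and 5 clusters. Exon 18 held 3 of the CDS peaks in replicate 1 and 0 in replicate 2. Both shared sites of Arid1a lay in exon 3. The site chr4:133720587-133720690 held the peak of the gene with the highest −log10(P value) in each replicate (12.7 and 20.3), at 2.64 (1.83 to 3.54, 59 IP and 16 SMInput reads) and 2.49 (1.89 to 3.11, 61 and 39 reads). A smaller peak of replicate 2 (2.04, 0.91 to 3.19) met the same peak of replicate 1. The site chr4:133720970-133720994 had 3.08 (1.51 to 5.09, 20 and 4 reads) and 2.13 (1.02 to 3.26, 17 and 14 reads). In the 3′UTR, 0 of 6 clusters were significant in replicate 1 (background 19.4%) and 3 of 4 in replicate 2 (background 34.5%). A pair of these 3 peaks overlapped clusters of replicate 1 that were not significant, at 1.35 and 1.08. The largest value of Arid1a there was 4.07 (2.23 to 6.51, 14 and 3 reads) at chr4:133679804-133679840, where replicate 1 had no cluster.

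The shared bases of the Arid1a sites, on the minus strand of GRCm38 from RefSeq, are shown because of a repeated triplet that was noticed after the values were seen. They lie at chr4:133720587-133720690 and chr4:133720970-133720994, and here capitals mark CAG. The window of 100 bases around the first site holds 14 CAG triplets in any reading frame. This was the highest number among the windows of all 1168 shared CDS sites, which had a median of 2, and 1 window (0.0856%) reached it. The part of the triplets in the binding was not tested.
Arid1a exon 3 first site: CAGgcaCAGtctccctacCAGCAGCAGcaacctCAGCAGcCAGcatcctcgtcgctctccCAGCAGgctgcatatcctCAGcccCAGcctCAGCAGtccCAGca
Arid1a exon 3 last site: accttatggcCAGcaaggcccCAGt

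**Figure D3:**
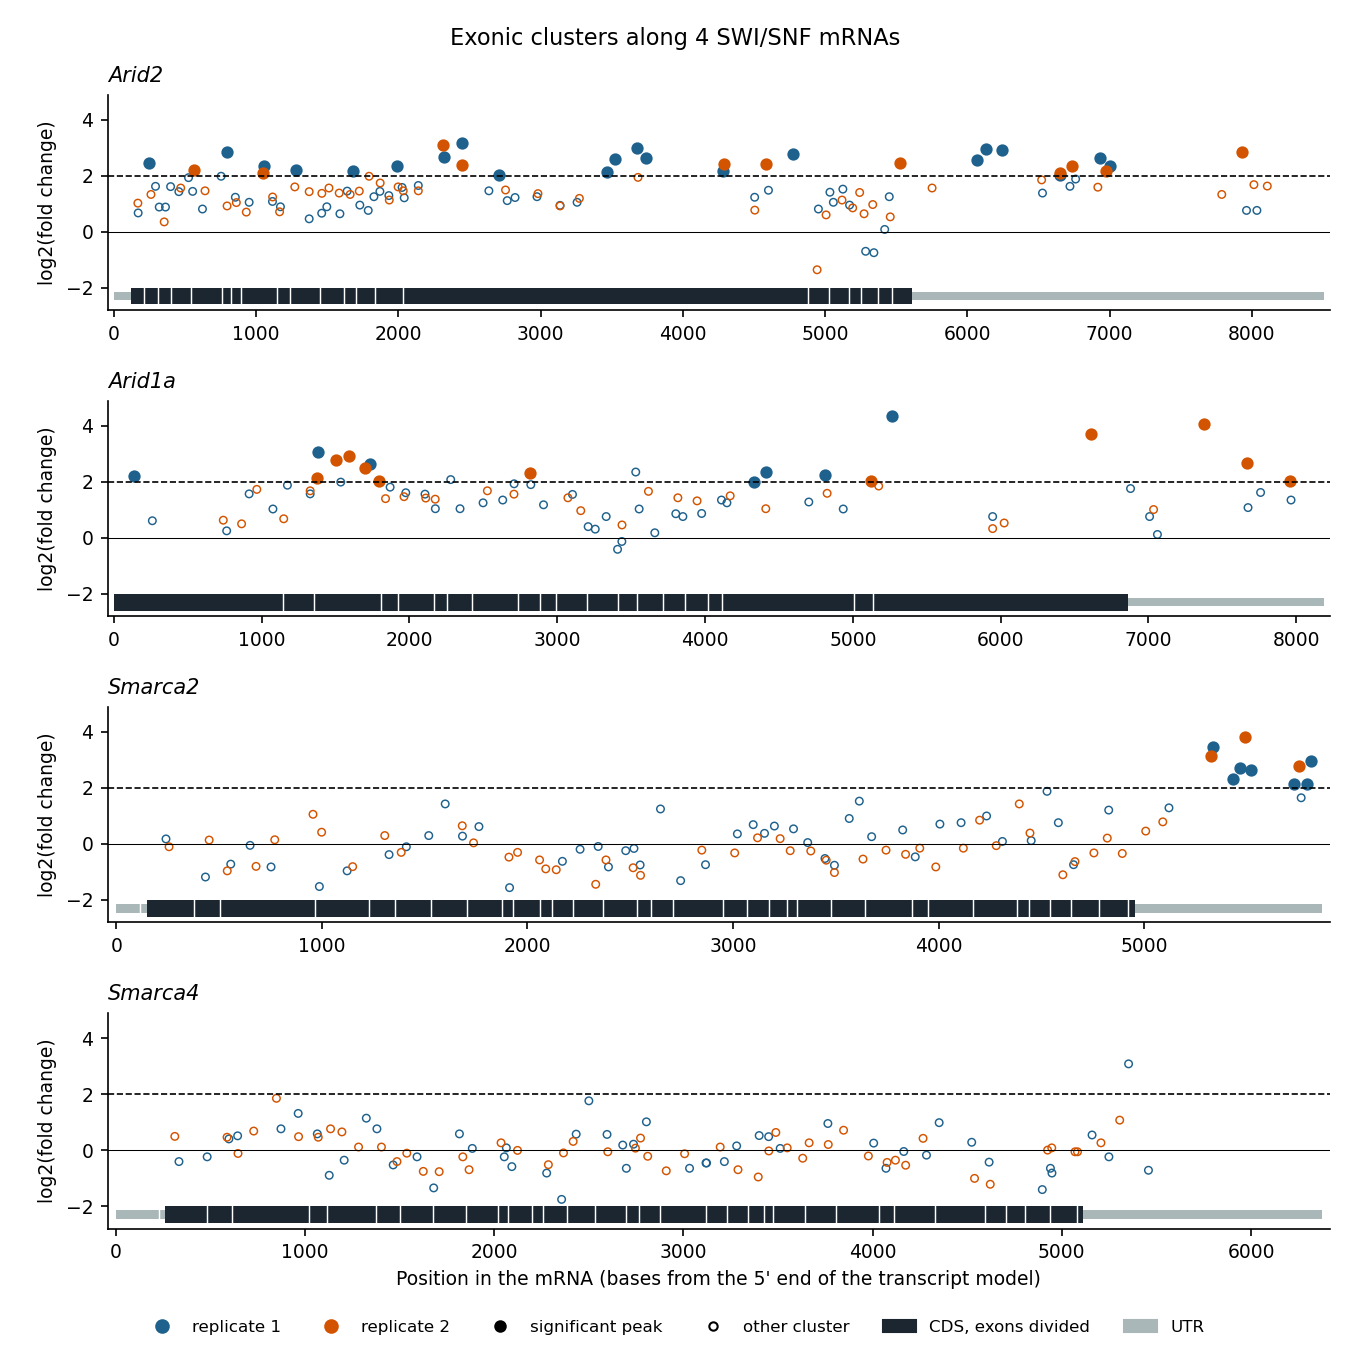
Clusters in exons of Arid2, Arid1a, Smarca2 and Smarca4, each placed at the centre of the cluster in bases from the 5′ end of the transcript model on the x axis, with log2(fold change) on the y axis. Blue points are replicate 1, orange points replicate 2, filled points significant peaks, and the dashed line the threshold of 2; the black bar is CDS with exon borders and the grey bar UTR. Peaks of Arid2 and Arid1a spread over CDS and 3′UTR, those of Smarca2 lie in the 3′UTR, and Smarca4 has none in exons.

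Arid1b, the alternative to Arid1a in BAF, differed from its paralogue. It had 9 and 7 CDS clusters, against 42 and 31 in Arid1a, over coding sequences of 6891 and 6864 bases. Of the Arid1b clusters, 2 were significant in replicate 1 (background 5.28%) and 0 in replicate 2 (background 7.96%). The one with the higher −log10(P value) (2.46), chr17:5336856-5336941 in exon 18, had 11 IP and 3 SMInput reads (2.64, 0.72 to 5.12). Arid1b was covered mainly in introns of its 353325-base span. There 0 of 72 clusters were significant in replicate 1 (background 1.94%) and 6 of 41 in replicate 2 (background 10.8%). The intron peak with the highest −log10(P value), chr17:5209700-5209782, had 7 IP and 2 SMInput reads (3.66, 1.26 to 6.96). All 6 intron peaks had 4 to 7 IP reads, and no peak of Arid1b in one replicate overlapped a peak in the other.

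Pbrm1, the bromodomain protein of PBAF, had 1 significant peak of 80 clusters in replicate 1 (1.25%, 0.221 to 6.75, background 4.92%). In replicate 2 it had 3 of 47 (6.38%, 2.19 to 17.2, background 13.2%). The peak in replicate 1, chr14:31111240-31111307, lay in an intron (8 IP and 2 SMInput reads). In replicate 2, the peak with the highest −log10(P value) (7.09) was in the 3′UTR at chr14:31120860-31120982, with 2.94 (1.65 to 4.36, 17 and 8 reads). None of 9 3′UTR clusters was significant in replicate 1 (background 19.4%), against 2 of 7 in replicate 2 (background 34.5%). In CDS, none of 29 and 17 clusters was significant in the replicates (background 5.28% and 7.96%). Pbrm1 and Arid2, both subunits of PBAF, thus differed in their counts of peaks, and this difference was not tested. Over all its clusters, the intervals of Pbrm1 included the background in both replicates.

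The replicates were compared peak by peak. Of the 50 peaks of replicate 1, 18 overlapped a significant peak of replicate 2, 10 overlapped a cluster that was not significant, and 22 met no cluster. Of the 55 peaks of replicate 2, the counts were 15, 14 and 26. Over all 16579 significant peaks of replicate 1, the shares were 33.0%, 20.4% and 46.6%, and over all 28494 of replicate 2 they were 18.5%, 23.2% and 58.3%. The 10 and 14 peaks that overlapped a cluster below the thresholds each met a value above 0, with a median log2(fold change) of 1.54 and 1.46 counted per peak, and some peaks met the same cluster. Such values are common among all clusters. Of these, 202092 of 216354 lay above 0 in replicate 2 (median 1.53) and 309607 of 337234 in replicate 1 (median 1.5). By region, a significant peak met 11 of 16 3′UTR peaks, 6 of 24 CDS peaks and 1 of 10 intron peaks of replicate 1, and 7 of 20, 7 of 15 and 1 of 20 of replicate 2. Over all peaks these shares were 45.7%, 35.9% and 4.48% in replicate 1 and 30.3%, 27.5% and 1.57% in replicate 2. Of the 11 in replicate 1, 7 were peaks of Smarca2, and some of these were touching pieces of 1 site. Over all 315 overlapping pairs of clusters of the 10 genes, which share genes and in part clusters, Pearson's r between the replicates' log2(fold change) was 0.698 and Spearman's rho 0.706.

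Motifs were counted on the strand of the peak in windows of 100 bases around the shared sites. Among the 14 windows of the members, GAACA was found in 0, AAACC in 1, GGACT in 1 and ACACA in 2. Over all 4157 shared sites the shares were 7.99%, 9.48%, 9.69% and 10.6%. Any of the motifs was found in 4 of the 14 (28.6%, 11.7 to 54.6) against 32.2% of all. All matches were outside 3′UTRs, with 0 of 7 windows there (up to 35.4%) against 32.1% of all shared 3′UTR sites, and 3 of 6 in CDS against 33.6%. With so few windows, no difference from all shared sites was detectable.

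The other SWI/SNF genes gave a wider frame. Of 19 further subunit genes, 16 held clusters in both replicates, 7 had a peak in both and 4 held a shared site, beside the 35.2% and 15.1% of all genes. They had 12 significant peaks of 434 clusters in replicate 1 (2.76%) and 21 of 271 in replicate 2 (7.75%), against 4.92% and 13.2% of all clusters. Dpf2, a PHD finger subunit of BAF, held 2 adjoining sites in its 3′UTR. At chr19:5897580-5897664 its log2(fold change) was 4.19 (2.73 to 6.13, 43 IP and 4 SMInput reads) and 3.12 (2.11 to 4.23, 29 and 12 reads), and at chr19:5897471-5897530 it was 4.43 (2.77 to 6.77) and 2.74 (1.31 to 4.31). Actl6a, an actin-related subunit, held a 3′UTR site at chr3:32726816-32726903 with 3.85 and 2.36. Bcl7c and Bicral each had a CDS site, at chr7:127707176-127707197 and chr17:46825674-46825675, on 7 to 11 IP reads. The CHD remodelers, another family with long mRNAs, had 10 significant peaks of 509 clusters (1.96%) and 20 of 326 (6.13%), against the same 4.92% and 13.2%. Peaks in both replicates were found in 5 of the 9 CHD genes (35.2% of all genes) and a shared site in 1 (15.1% of all genes). It was in the 3′UTR of Chd8 (chr14:52198385-52198414), on 10 and 5 IP reads.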

How the data were processed

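IGF2BP3 eCLIP-seq of 8-week-old mouse testes was analysed in 2 replicates, each a table of the IP against its own SMInput. The authors removed adapters with cutadapt and ribosomal RNA reads with Bowtie2, used STAR for alignment to mm10, and called clusters with Clipper in each replicate. The deposited −log10 values are P values of the authors' test of IP against SMInput reads in each cluster, with 0 for all clusters whose log2 value is not above 0 and for some just above it, and 400 as the highest value. The deposited log2 values are the authors' fold changes of IP over SMInput, scaled to the libraries. These values were used to describe and filter clusters.

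Reads were recovered as the whole numbers that return both values (two-sided Fisher's exact test where an observed or expected number was below 5, otherwise chi-square with Yates' correction), within 1e-06 and 4e-05 on the −log10 scale. This was tested on simulated data. Regions came from basic GENCODE M21 transcripts (3′UTR, CDS, 5′UTR, non-coding exon, intron, in that order). Lengths and exons are those of the transcript with the longest CDS. Overlaps used bedtools 2.31.1, statistics scipy 1.17.1 and sequences pysam 0.24.0. All members were named, with shared sites (4 per gene at most, though all 6 of Arid2 are given) and the peak with the highest −log10(P value) per replicate. Of the other lists, genes with a shared site were named. The members and lists were chosen with earlier results of these data known. No test between samples was made, since 2 pairs of libraries give little power, and clusters are not replicates.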

Additional observations from a re-analysis of the deposited data

How the results depend on the processing

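Of 48 alternatives, 34 left a value within 1.5 times the count or within its interval. With both thresholds at 3, the members had 4 and 9 significant peaks in replicates 1 and 2, with 3 genes having a peak in both and 1 shared site, in Smarca2. With log2(fold change) of at least 1, they had 83 and 99 peaks and 33 shared sites. Giving each cluster to the gene whose transcription start was nearest, whatever its strand, left 31 and 26 peaks and 4 genes with a peak in both. For these settings the same counts over all genes were not made, so the changes do not set the members apart from other genes. Requiring 10 IP reads left 30 peaks in replicate 2 and 5 genes with a peak in both (19.9% of all genes). A Benjamini-Hochberg adjusted P value of at most 0.05 also left 5 (25.2% of all genes). Requiring overlap of the peaks left 4 (15.1% of all genes). Counting each replicate alone gave 8 and 10 genes. The genes with a shared site were Arid1a, Arid2, Smarca2 and Smarcc1 also under the adjusted P value (13 sites) and with 10 IP reads (12 sites). The motif shares moved within their intervals with windows of 200 bases.

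No paired analysis was possible because the results are counts and shares that come from no test between libraries, and the replicates list clusters with different borders; each listed fold change is already the difference within a pair. Depth limited the intron peaks most: in replicate 2 all 20 had under 10 IP reads. Peaks began at 7 IP reads in replicate 1 and at 4 in replicate 2, whose SMInput was deeper, so counts of peaks were not compared between replicates.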

Other observations

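Markers of testis cell types gave the cell context of the SWI/SNF values. All 7 spermatid markers, 5 spermatocyte markers and 4 spermatogonial markers held clusters in both replicates, and 2, 1 and 3 of them had a significant peak in both, where 35.2% of all genes did. With so few genes per list, no list was tested against that share. Prm2, the precursor of a protamine that packs sperm DNA, had the most SMInput reads of the spermatid markers (1903 and 3827). Markers of somatic cells were present as well. Insl3, a hormone gene of Leydig cells, had 2536 and 4061 SMInput reads in its clusters, and none of the 5 Leydig cell markers had a peak in both replicates. The same held for the 5 Sertoli cell markers, of which Rhox5 had no cluster in replicate 2, and for 3 macrophage markers, whose clusters held 18 and 9 SMInput reads. Of 2 markers of peritubular myoid cells, 1 had a peak in both. In which of these cells the SWI/SNF mRNAs were bound was not tested.

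The rule that gives a cluster its gene mattered for these long genes. The nearest transcription start site belonged to the member itself for 30 of 50 significant peaks in replicate 1 and 25 of 55 in replicate 2. In 3′UTRs, this held for 7 of 16 and 3 of 20.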
